A study of Mus musculus with 17 samples.

Results

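The 33 genes described here encode the enzymes and 1 carrier of methionine, folate and one-carbon metabolism, and were picked by gene symbol from a table of 27020 genes measured in mouse liver. All 33 symbols were found in the table, each on 1 row, and all 33 passed the filter on low values. The RNA came from 17 livers of mice aged 8 weeks, sequenced after removal of ribosomal RNA, and Khdc3, the gene deleted in the null animals, encodes an oocyte protein. WT mice (n = 4) had WT ancestors, and KO mice (n = 3) were Khdc3-null with KO ancestors. WT_star mice (n = 4) were genetically WT and KO_star mice (n = 6) genetically Khdc3-null, and both of these groups were females bred from heterozygous parents with WT as well as KO grandparents. Genotype and ancestry therefore differ together between KO and WT, and genotype is the labelled difference between KO_star and WT_star. WT_star and WT, and likewise KO_star and KO, share a genotype but differ in the genotype of both parents and grandparents, and since no sex is given for WT and KO, a difference in sex cannot be told apart from ancestry there. The deletion is of the germline, and the labels give no strain, litter or batch, so a p-value reflects nothing but the variation among these 17 livers.

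Liver makes S-adenosylmethionine (SAM), the general methyl donor, from methionine. After a methyl group is given away, S-adenosylhomocysteine (SAH) is left, which is split to homocysteine. Homocysteine is either methylated again, with betaine or methyl-folate as the donor, or turned into cysteine by transsulfuration, while serine and glycine feed carbon units into folate and choline is oxidised to betaine.

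Promoter sequences are shown for the genes that passed the test in at least 1 comparison, Bhmt, Gamt and Aldh1l1, and for the stretch between Bhmt2 and Dmgdh, which neighbour Bhmt. They are from RefSeq on GRCm38.p6, and each of the first 3 is the 250 bases that end just before the annotated transcript start. Capitals mark matches, on either strand, to AAAGGTCA (an element bound by nuclear receptors), GGGCGG (a GC box) and CCAAT (the CCAAT box). TATAAA was searched as well and did not occur in these windows. The 4 motifs share no letters where they match here. Bhmt at chr13:93637759-93638008 and Gamt at chr10:80261013-80261262 are given on the minus strand, and Aldh1l1 at chr6:90550543-90550792 and the Bhmt2-Dmgdh stretch at chr13:93674303-93674435 on the plus strand.
Bhmt: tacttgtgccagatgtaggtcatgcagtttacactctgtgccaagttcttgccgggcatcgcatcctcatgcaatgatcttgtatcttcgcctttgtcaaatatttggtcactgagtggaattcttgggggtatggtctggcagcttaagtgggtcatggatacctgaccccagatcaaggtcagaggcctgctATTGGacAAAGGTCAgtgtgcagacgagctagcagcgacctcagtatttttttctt
Gamt: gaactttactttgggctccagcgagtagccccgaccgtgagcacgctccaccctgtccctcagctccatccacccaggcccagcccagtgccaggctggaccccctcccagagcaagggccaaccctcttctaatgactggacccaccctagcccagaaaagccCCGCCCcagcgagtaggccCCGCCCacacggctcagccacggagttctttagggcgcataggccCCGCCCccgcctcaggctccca
Aldh1l1: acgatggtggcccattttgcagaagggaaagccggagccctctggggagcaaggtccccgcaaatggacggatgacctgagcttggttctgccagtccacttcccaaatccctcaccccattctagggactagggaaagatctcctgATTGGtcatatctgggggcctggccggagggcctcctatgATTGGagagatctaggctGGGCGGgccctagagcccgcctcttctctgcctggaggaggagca
Bhmt2-Dmgdh: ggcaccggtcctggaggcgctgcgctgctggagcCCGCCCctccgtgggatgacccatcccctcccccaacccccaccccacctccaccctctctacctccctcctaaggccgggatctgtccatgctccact
The Bhmt window held AAAGGTCA at 49 bases before the start, which 1.3% of 32851 RefSeq promoters of that length hold, and a CCAAT match on the other strand. The Gamt window held 3 GGGCGG matches and the Aldh1l1 window 1, a motif in 32.7% of promoters, and the Aldh1l1 window held CCAAT in 2 places, a motif in 33.8%. The 133 bases between the RefSeq starts of Bhmt2 and Dmgdh held 1 GGGCGG match, found in 27.5% of windows of 133 bases. TATAAA is in 12.4% of windows of 250 bases. These matches are letters in a window and not measured sites. The GENCODE gene of Bhmt extends beyond the RefSeq start, and that of Aldh1l1 begins further upstream at an alternative start.

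The values are the authors' normalized gene reads, read counts divided by 1 factor per library, and the libraries held 17.62 to 26.7 M reads in genes. Khdc3 itself had 0 to 1 reads in a WT library, 2 to 3 in KO, 1 in WT_star and 0 to 4 in KO_star, so its liver RNA does not check the genotype labels. Hepatocyte markers were high in every library (7 of 8 were found by symbol), with a summed value of 1657812 or more, but markers of Kupffer cells (4192 or more), sinusoidal endothelium (7428 or more) and stellate cells (7930 or more) were also present, although the labels name the hepatocyte as the cell type. In such bulk tissue, fewer cells of a type and less RNA per cell cannot be told apart. Kidney markers, a tissue that shares many of these enzymes, summed to at most 5.067 in any library.

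Per kb of exon, the level of the 33 genes spanned more than 4 orders of size. Mat1a, which encodes the liver form of the enzyme that makes SAM, was highest at a mean of 19454 per kb over 17 libraries, followed by the glycine methyltransferase gene Gnmt at 17267 per kb. The folate enzyme gene Aldh1l1 (5123 per kb), Bhmt (3570 per kb), the sarcosine dehydrogenase gene Sardh (3199 per kb) and the dimethylglycine dehydrogenase gene Dmgdh (2626 per kb) came next. The mitochondrial folate genes Mthfd2 (11.5 per kb), Mthfd1l (18.1 per kb) and Aldh1l2 (0.894 per kb), and the first genes of serine synthesis, Phgdh (2.91 per kb) and Psat1 (8.33 per kb), were lowest. Aldh1l2 had 2 to 14 reads in a library and Phgdh 0 to 30, so their values carry a large counting error. Mat1a stood 57.9 to 87.0 times above Mat2a, the form of most other tissues, per kb in the 17 libraries.

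**Figure D1:**
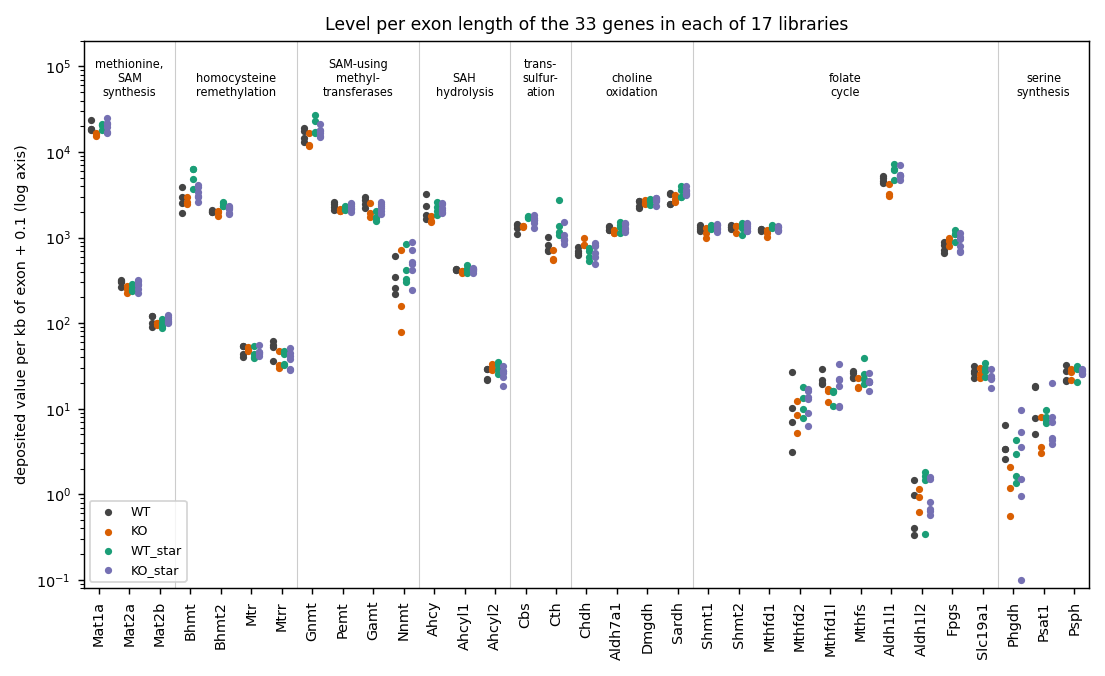
Deposited value per kb of exon plus 0.1, on a log axis, for each of the 33 genes in each of 17 libraries, with 1 point per library coloured by group and genes ordered by role. Mat1a and Gnmt lie at the top, at means of 19454 and 17267 per kb, and Aldh1l2 and Phgdh at the bottom, at 0.894 and 2.91 per kb.

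The spread within groups differed among the genes. The SD of log2(value + 1) around the group means was 0.072 for the SAH hydrolase-like gene Ahcyl1 and 0.079 for the cytosolic folate enzyme gene Mthfd1. It reached 0.872 for the nicotinamide methyltransferase gene Nnmt, whose value ran from 125.2 to 1396, and 1.15 for Phgdh. The median over the 33 genes was 0.215, beside 0.239 over the 16157 genes tested.

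**Figure D2:**
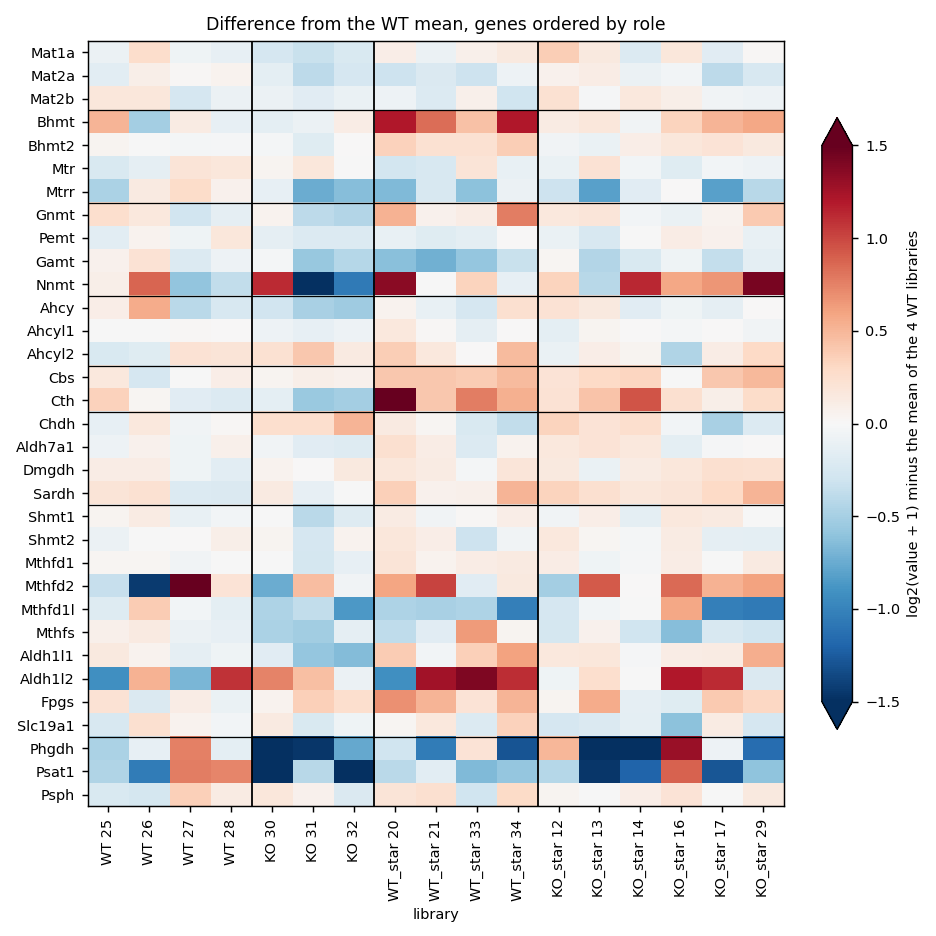
Difference of log2(value + 1) from the mean of the 4 WT libraries for the 33 genes (rows, ordered by role) in 17 libraries (columns, ordered by group), with colours ending at 1.5 in either direction. Bhmt is above the WT mean in all 4 WT_star libraries, and the weakly expressed Phgdh, Psat1, Mthfd2 and Aldh1l2, as well as Nnmt, vary most from library to library.

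Fold changes are differences of log2(value + 1), which understate the change of low genes, and were tested with limma over all 16157 genes with Benjamini-Hochberg adjustment and a threshold of 0.05. Comparisons that share a group share its chance values. WT_star against WT asks what differs between WT mice of mixed and of WT ancestry. Bhmt, the betaine-homocysteine methyltransferase gene, was higher in WT_star and Gamt, the gene of the last step of creatine synthesis, was lower. These 2 of 33 genes (6.06%) passed, where 0.904% of all genes tested did. An unadjusted p under 0.05 was reached by 9 of the 33, 7 higher and 2 lower (14.9% of all genes, in either direction). The WT_star libraries lay wholly above the WT libraries for 4 genes, Bhmt2, Cbs, Cth and Mthfd1, which is 12.1% beside 4.12% of all genes. They lay wholly below them for 2, Gamt and Mthfd1l, which is 6.06% beside 4.83%.

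KO_star against KO compares Khdc3-null mice of mixed and of KO ancestry. Aldh1l1, whose enzyme removes the formyl group from folate, was higher in KO_star and was the 1 gene of the 33 that passed (3.03%, beside 1.46% of all genes tested). Of the 33 log2 fold changes, 28 were above 0 with a median of 0.17, and 27 with a median of 0.12 when libraries were scaled to equal totals, while the median over all genes was -0.002 and shifted to -0.049 under that scaling. An unadjusted p under 0.05 was reached by 10 (30.3%, beside 17.7% of all genes), 9 of them higher in KO_star (27.3%, beside 9.24%). The KO_star libraries lay wholly above the KO libraries for 6 genes, Mat1a, Mat2b, Ahcy, Cth, Sardh and Aldh1l1, which is 18.2% beside 5.31% of all genes.

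KO against WT compares Khdc3-null mice with KO ancestors to WT mice with WT ancestors. None of the 33 genes passed by limma, where 2.89% of all genes tested did, and edgeR and DESeq2 also called 0. The smallest adjusted p was 0.11, for Aldh1l1. At an unadjusted p under 0.05 there were 6 genes, all with lower values in KO: Mat2a, Mtrr, Gamt, Ahcy, Aldh1l1 and Psat1 (18.2%, beside 9.01% of all genes in that direction). The log2 fold change was below 0 for 24 of 33 with a median of -0.13, and for 21 with a median of -0.07 under equal library totals, while the median over all genes was 0.008 and shifted to 0.074 under that scaling. The KO libraries lay wholly below the WT libraries for Mat1a, Ahcyl1, Mthfd1l, Mthfs, Aldh1l1 and Phgdh (18.2%, beside 9.49%) and wholly above them for the choline dehydrogenase gene Chdh (3.03%, beside 8.86%).

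KO_star against WT_star compares the genotypes within mixed ancestry. None of the 33 genes passed by limma, nor by edgeR or DESeq2, and the share of all genes tested that limma called was 0%. An unadjusted p under 0.05 was reached by 6 of the 33 (18.2%, beside 7.33% of all genes): Bhmt, Bhmt2, Cth, Fpgs and Slc19a1 had lower values in KO_star, and Gamt had higher ones. The KO_star libraries lay wholly below the WT_star libraries for 1 gene, Bhmt2 (3.03%, beside 0.619% of all genes). In KO_star against WT, limma, edgeR and DESeq2 again called 0 of the 33 (limma called 0.706% of all genes), 3 had an unadjusted p under 0.05 (9.09%, beside 12.1% of all genes), and no gene was without overlap (2.89% of all genes were). The interaction of genotype and ancestry compares KO_star minus WT_star with KO minus WT. Since KO and WT differ in ancestry as well, genotype and ancestry cannot be told apart in the interaction. It passed for 0 of the 33 by limma, which called 1.29% of all genes, and for 0 by edgeR. By DESeq2 it passed for 1, Gamt, where DESeq2 called 687 of all 16157 genes. Its unadjusted p was under 0.05 for 4 of the 33 (12.1%, beside 15.9% of all genes): Mat2a, Gamt, Ahcyl2 and Fpgs.

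**Figure D3:**
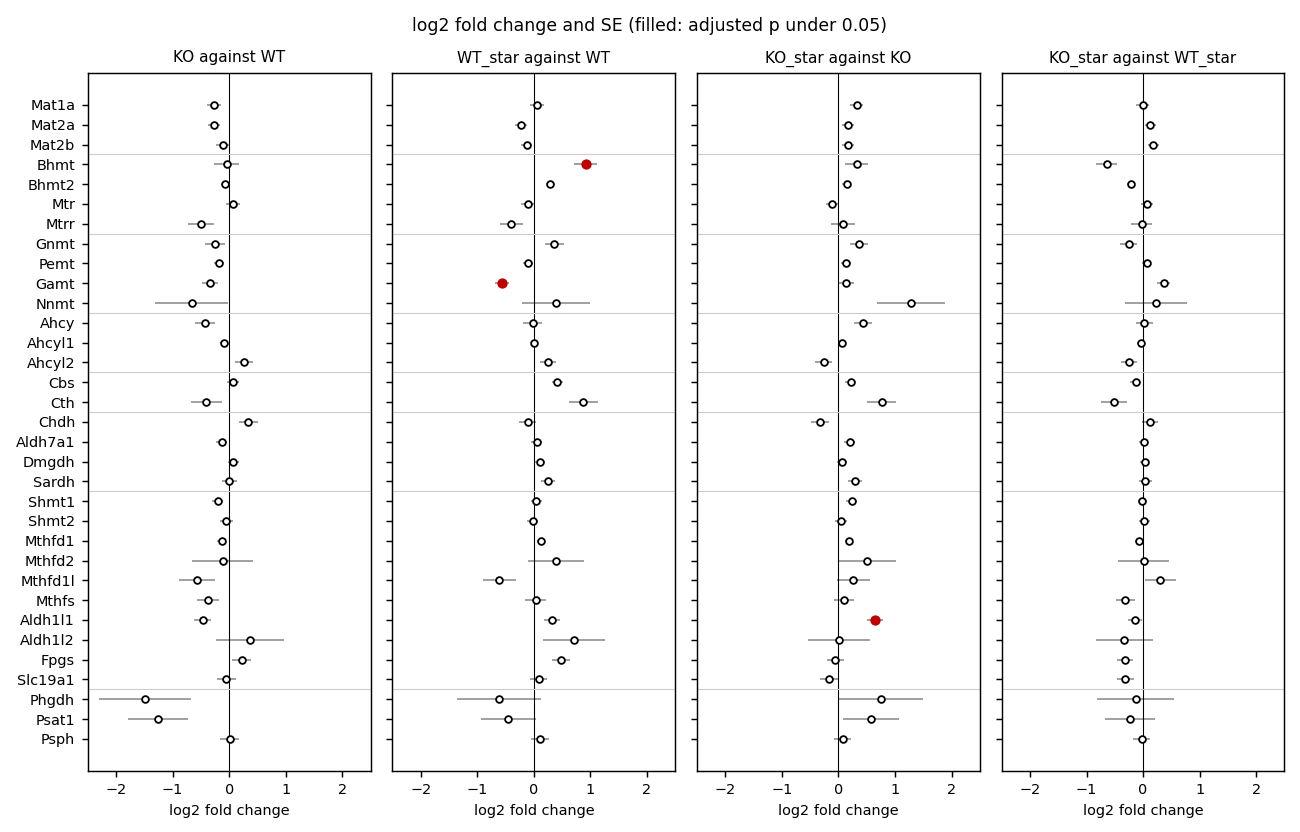
The log2 fold change (x axis) of each of the 33 genes in 4 comparisons, with bars of 1 SE and genes ordered by role, where filled red points have an adjusted p under 0.05. Bhmt (0.92) and Gamt (-0.56) in WT_star against WT and Aldh1l1 (0.65) in KO_star against KO are the filled points.

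Among the genes of methionine and SAM synthesis, Mat1a (chromosome 14, 41105035 to 41124412) was at 63716, 81377, 64567 and 62251 in WT and at 56859, 53715 and 57742 in KO. It was at 72371, 63602, 71455 and 74628 in WT_star and at 58485 to 87507 in KO_star, with a median of 71449. All KO libraries were below all others, and the other groups overlapped. Mat1a had a log2 fold change of -0.27 in KO against WT (SE 0.13, adjusted p = 0.31 by limma) and 0.32 in KO_star against KO (SE 0.12, adjusted p = 0.18). Mat2a, at 1017 to 1453 over the 17 libraries, had a log2 fold change of -0.27 in KO against WT (adjusted p = 0.23) and -0.23 in WT_star against WT (adjusted p = 0.30). Mat2b, which encodes the regulatory partner of the Mat2a enzyme, was at 433.2 to 622.3.

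Homocysteine is methylated with betaine by the product of Bhmt, while that of Bhmt2 prefers S-methylmethionine as the donor. The product of Mtr uses methyl-folate and is kept active by that of Mtrr. Bhmt (chromosome 13, 93616675 to 93637961) was at 22385, 11100, 17160 and 14543 in WT and at 14211, 14838 and 16980.4 in KO. The WT_star libraries held 36240.0, 28121, 21408 and 36325, and the KO_star libraries ran from 15206 to 23626 with a median of 18817. WT_star libraries 20, 21 and 34 were above every library of the other groups, while WT_star 33 fell within the range of WT, below WT 25. Bhmt rose in WT_star against WT, by 0.92 on the log2 scale (SE 0.20, 1.89-fold, adjusted p = 0.045 by limma), and the call was lost without WT 26, 27 or 28 or WT_star 20, 21 or 34, with an adjusted p of 0.016 to 0.15 when libraries were left out in turn. It was also lost with no filter, quantile normalization or only the groups compared. In KO_star against WT_star the log2 fold change was -0.64 (SE 0.18, adjusted p = 0.37), in KO_star against KO 0.32 (SE 0.20, adjusted p = 0.43), in KO against WT -0.04 (SE 0.22, adjusted p = 0.95), and the interaction was -0.60 (SE 0.29, adjusted p = 0.32).

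Bhmt2 was at 5136, 4989, 4888 and 4949 in WT and at 6349, 5834, 5849 and 6464 in WT_star. It was at 4904, 4403 and 4991 in KO and at 4645 to 5750.4 in KO_star, with a median of 5435. Every WT_star library was above every other library, and the other 3 groups overlapped. The log2 fold change in WT_star against WT was 0.29 (SE 0.08, adjusted p = 0.078). Mtr (332.3 to 466.8) and Mtrr (148.7 to 319.6) reached no adjusted p under 0.05 in any comparison. Per kb, Bhmt stood 44.7 to 96.7 times above Mtr in WT and 68.7 to 161 times in WT_star, with overlap.

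Bhmt, Bhmt2 and Dmgdh lie within 136.2 kb of chromosome 13. Bhmt and Bhmt2 run in the same direction with 17.8 kb between them, and Bhmt2 and Dmgdh start head to head. Dmgdh, whose enzyme takes a methyl group from the product of the Bhmt reaction, was at 7526 to 9961 and its log2 fold change was 0.11 in WT_star against WT (SE 0.09, adjusted p = 0.60). The 3 genes thus had log2 fold changes of 0.92, 0.29 and 0.11 along the map, and the differences between them were not tested. Of 16 other genes tested within 1 Mb of Bhmt, 0 passed by limma in WT_star against WT.

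**Figure D4:**
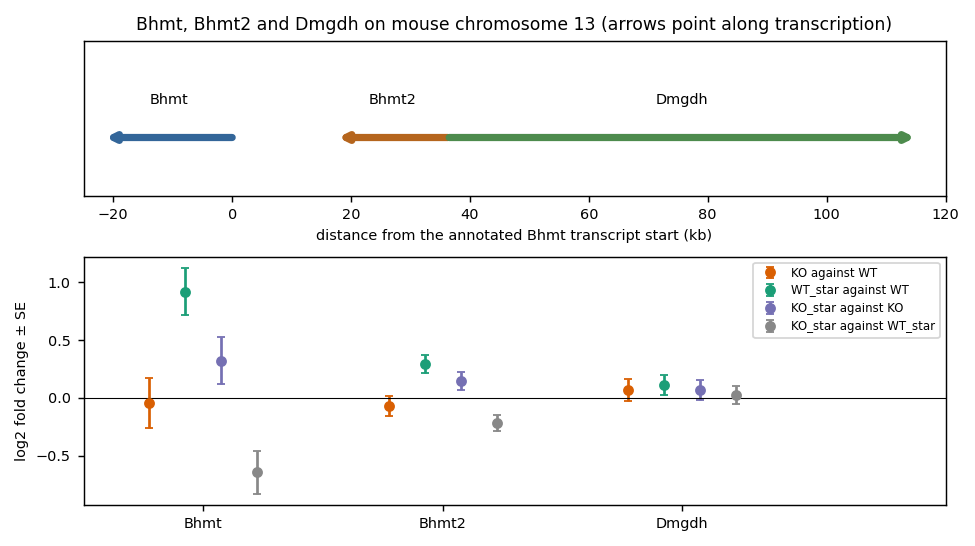
Top, the positions of Bhmt, Bhmt2 and Dmgdh as distance in kb from the annotated Bhmt start, with arrows along transcription. Bottom, the log2 fold change of each gene with bars of 1 SE in 4 comparisons, where WT_star against WT is 0.92 for Bhmt, 0.29 for Bhmt2 and 0.11 for Dmgdh.

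Of the SAM-using methyltransferases, Gamt (chromosome 10, 80258151 to 80261012) was at 3910.2, 4319, 3232 and 3544 in WT and at 2411, 2258, 2503 and 2964 in WT_star. It was at 3651, 2514 and 2778 in KO and at 2754 to 3805 in KO_star, with a median of 3265. All WT_star libraries were below all WT libraries, and KO and KO_star overlapped both. Gamt fell in WT_star against WT, its log2 fold change being -0.56 (SE 0.13, 0.676-fold, adjusted p = 0.047 by limma). The call was lost in each fit without 1 library other than WT_star 34, with an adjusted p of 0.033 to 0.15, and with equal library totals, edgeR, quantile normalization or only the groups compared. In KO against WT the log2 fold change was -0.34 (SE 0.14, adjusted p = 0.21), in KO_star against WT_star 0.36 (SE 0.12, adjusted p = 0.45), and the interaction was 0.70 (SE 0.18, adjusted p = 0.065). Of 80 other genes tested within 1 Mb of Gamt, 0 passed by limma in WT_star against WT.

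Gnmt, whose enzyme uses up SAM by methylating glycine, was at 15874 to 22942 in WT, 20233 to 32718 in WT_star, 14239 to 20065 in KO and 18020.3 to 25410.4 in KO_star. All KO libraries were below all WT_star libraries, the other pairs of groups overlapped, and the log2 fold change was 0.36 in WT_star against WT (SE 0.16, adjusted p = 0.30). Pemt, whose enzyme makes phosphatidylcholine, stayed within 4192 to 5539 over the 17 libraries. Nnmt was at 1128 in KO 30 and at 125.2 and 249.0 in the other KO libraries, so 1 library sets most of the KO mean, and no comparison passed.

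SAH is split by the product of Ahcy, while those of Ahcyl1 and Ahcyl2 are related proteins. Ahcy (chromosome 2, 155059310 to 155074497) was at 6594, 9045, 4651 and 5215 in WT and at 5054, 4412 and 4272 in KO. It was at 6376, 5703, 5167 and 7273 in WT_star and at 5470 to 7144 in KO_star, with a median of 6048. The KO libraries were below all WT_star and KO_star libraries but overlapped WT through WT 27. Ahcy differed by -0.43 on the log2 scale in KO against WT (SE 0.18, adjusted p = 0.22) and 0.43 in KO_star against KO (SE 0.16, adjusted p = 0.18 by limma).

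The transsulfuration genes Cbs and Cth encode the enzymes that make cystathionine from homocysteine and split it to cysteine. Cbs (chromosome 17, 31608894 to 31637238) was at 10817, 8152, 9700 and 10391 in WT and at 12898, 12893, 12602 and 13494 in WT_star. It was at 9984, 10344 and 10194 in KO and at 9695 to 13609 in KO_star, with a median of 12052. All WT_star libraries were above all WT and all KO libraries, and KO_star overlapped the 3 other groups. The log2 fold change in WT_star against WT was 0.42 (SE 0.10, adjusted p = 0.056 by limma), and 0.29 in KO_star against WT (SE 0.09, adjusted p = 0.19). Cth was at 2846, 2276, 1988 and 1933 in WT and at 7727, 2967, 3817 and 3228 in WT_star. WT_star 20 lay far above its group, and all WT_star libraries were above all WT libraries, a log2 difference of 0.88 (SE 0.25, adjusted p = 0.11). Cth was at 2024, 1516 and 1571 in KO and at 2370 to 4301 in KO_star, without overlap, with a log2 fold change of 0.77 in KO_star against KO (SE 0.25, adjusted p = 0.14). In WT_star against WT, Cbs passed in 5 of 18 alternatives (DESeq2, library weights, equal library totals, a filter of 50, and without WT 25). By DESeq2, Cth passed in WT_star against WT and in KO_star against KO.

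**Figure D5:**
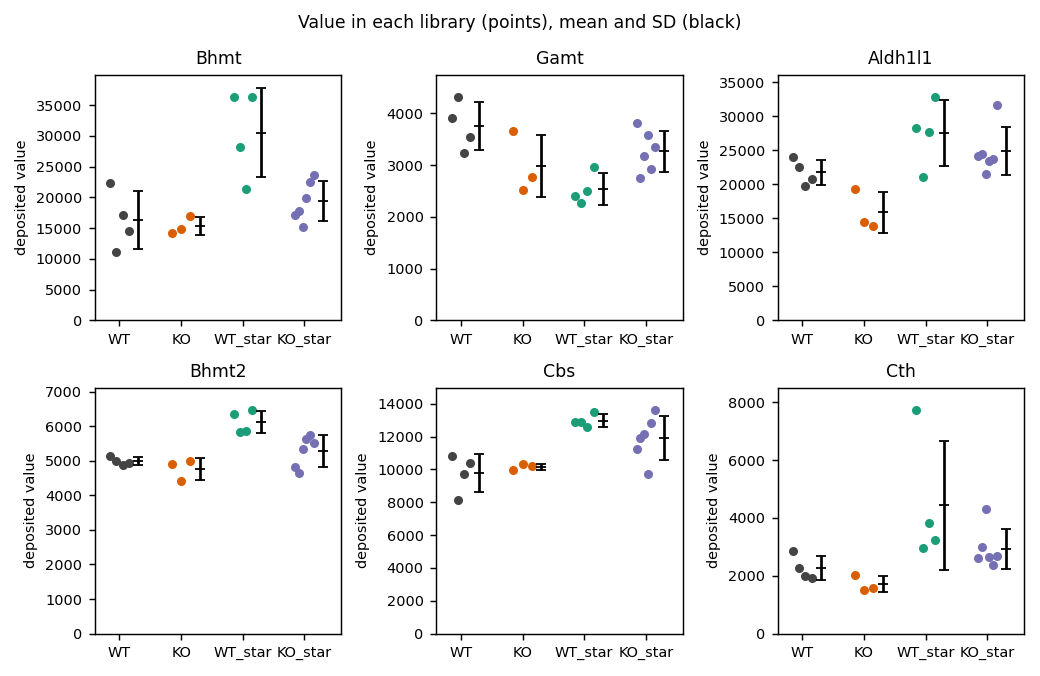
Deposited values (y axes from 0) of 6 genes in every library by group, with 1 point per library and the mean and SD in black beside them. Bhmt, Bhmt2, Cbs and Cth are highest on average in WT_star, Gamt is lowest there, and the 3 KO libraries of Aldh1l1 lie below all KO_star libraries.

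Choline is turned into betaine by the products of Chdh and Aldh7a1, and the dimethylglycine left by the Bhmt reaction is stripped of further methyl groups by those of Dmgdh and Sardh. Sardh (chromosome 2, 27188393 to 27248337) was at 17570.4, 17953, 13340 and 13261 in WT and at 16890.5, 14113 and 15359 in KO. It was at 19747, 16020, 16158 and 21831 in WT_star and at 17293 to 21851 in KO_star, with a median of 18519. All KO_star libraries were above all KO libraries, and WT overlapped each group. Sardh differed by 0.29 on the log2 scale in KO_star against KO (SE 0.12, adjusted p = 0.24 by limma) and 0.29 in KO_star against WT (SE 0.11, adjusted p = 0.31). Chdh was at 5087, 5098 and 6095 in KO and at 3927 to 4789 in WT, without overlap, the log2 difference being 0.34 (SE 0.17, adjusted p = 0.33). Aldh7a1, at 5789 to 7888, passed in no comparison.

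The folate genes span the cytosolic enzymes Shmt1, Mthfd1, Mthfs and Aldh1l1, the mitochondrial enzymes Shmt2, Mthfd2, Mthfd1l and Aldh1l2, the enzyme Fpgs that adds glutamates to keep folate in the cell, and the carrier Slc19a1. Aldh1l1 (chromosome 6, 90486427 to 90600203) was at 19304, 14470.3 and 13832 in KO and at 21482 to 31671 in KO_star, with a median of 23949. It was at 23953, 22460.3, 19803 and 20709 in WT and at 28304, 21094, 27656 and 32835 in WT_star. All KO libraries were below all other libraries, and WT, WT_star and KO_star overlapped. Aldh1l1 rose in KO_star against KO, by 0.65 on the log2 scale (SE 0.14, 1.57-fold, adjusted p = 0.029 by limma). That call was lost without KO 31 (adjusted p = 0.17) or KO 32 (adjusted p = 0.13), which leave 2 KO libraries, and held in the 17 other alternatives. In KO against WT the log2 fold change was -0.47 (SE 0.15, adjusted p = 0.11), in WT_star against WT 0.32 (SE 0.14, adjusted p = 0.28) and in KO_star against WT_star -0.14 (SE 0.13, adjusted p = 0.88). Of 23 other genes tested within 1 Mb of Aldh1l1, 0 passed by limma in KO_star against KO.

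Of the other folate genes, Fpgs was at 2517 to 3394 in WT and 3369 to 4723 in WT_star, a log2 difference of 0.48 (SE 0.15, adjusted p = 0.14). Its exons overlap those of the endothelial gene Eng on the other strand (mean value 1751), and the sources used here do not say whether strand was counted. Per kb, Shmt1 and Shmt2 stood close to each other, with a ratio of 0.819 to 1.22 in all libraries. Mthfd1 was at 5301 to 5608 in WT and 5693 to 6266 in WT_star, without overlap, and differed by 0.12 on the log2 scale (SE 0.07, adjusted p = 0.44). Mthfd1l was at 85.4 to 127.3 in WT, 53.1 to 75.5 in KO and 47.4 to 70.8 in WT_star, and passed in no comparison. Exons of Aldh1l2 overlap those of D10Wsu102e, whose mean value was 419.5 beside 6.71 for Aldh1l2.

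Serine is made by the products of Phgdh, Psat1 and Psph in turn. Psph (chromosome 5, 129765558 to 129787449) was at 94.3, 92.0, 141.5 and 120.6 in WT and at 124.4, 115.4 and 94.5 in KO. It was at 126.3, 130.5, 89.4 and 135.1 in WT_star and at 109.8 to 126.8 in KO_star, with a median of 116.0. The 4 groups overlapped, the log2 fold change was 0.01 in KO against WT (SE 0.17, adjusted p = 0.99 by limma), and exons of Psph overlap Cct6a on the other strand (mean value 1817). Psat1 was at 32.9, 21.4, 77.6 and 76.0 in WT and at 12.3, 33.7 and 14.8 in KO, which overlap, a log2 difference of -1.25 (SE 0.53, adjusted p = 0.23). Phgdh was at 6.22 to 15.98 in WT and 1.12 to 4.92 in KO, without overlap and close to the floor of 3 reads (2.38 to 3.55), with an adjusted p of 0.38.

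The 33 genes together took 0.944 to 1.105% of all gene reads in WT, 0.888 to 1.018% in KO, 1.115 to 1.353% in WT_star and 1.004 to 1.214% in KO_star. All WT_star libraries were above all WT libraries in this share, and KO_star overlapped KO through KO 30. The sum of hepatocyte markers, most of it albumin RNA, moved with several comparisons. It was 2492043 to 2580985 in WT, 1657812 to 1901912 in KO, 1919591 to 2172887 in WT_star and 2056989 to 2704724 in KO_star. Without overlap, the sum was lower in KO and in WT_star than in WT and higher in KO_star than in KO. In KO, Alb and Cps1 lay wholly below WT and KO_star, and the other listed genes overlapped. In WT_star, Alb, Apoa1, Ttr and Hnf4a lay wholly below WT. Cps1 lay wholly above it (135440 to 164701 beside 111987 to 133742.5), and Apoc3 and Fgb overlapped. The sum of stellate cell markers was also lower in KO (8884 to 9346) and WT_star (9646 to 11254) than in WT (11416 to 14196). Of the stellate genes, Reln alone lay wholly below WT in WT_star, while in KO all but Dcn and Lrat did. In KO_star against KO, marker sums of dividing cells (458.5 to 2580 beside 279.5 to 376.5) did not overlap either. The same held for neutrophils (30.7 to 76.0 beside 11.2 to 15.7) and the pancreatic acinar list (409.8 to 2881 beside 275.5 to 319.5). That acinar sum was nearly all Cela1 in WT, KO and WT_star, where Cpa1, Prss2 and Ctrb1 were at 0.888 or less. In KO_star these reached 525.4, 329.7 and 756.8. KO_star 16 held the highest acinar and dividing cell sums. Of the dividing cell genes, Mki67 alone was without overlap in KO_star against KO (275.7 to 1304 beside 133.8 to 185.6). Of the neutrophil genes, all at 31.42 or less in these 2 groups, S100a9 alone overlapped. The cholangiocyte and B cell sums were higher in KO than in WT, and the acinar sum lower, without overlap. Of the cholangiocyte genes, Sox9 and Spp1 did not overlap, while Krt19, Krt7 and Epcam did. Of the B cell genes, Igkc and Jchain did not overlap, and the rest did. The summed markers of periportal and of pericentral hepatocytes overlapped in these comparisons, but some single genes did not. In KO against WT, pericentral Glul was higher (15904 to 18426 beside 7457.5 to 12602.5) and Lect2 lower (1501 to 2176 beside 2234 to 2715). Periportal Aldh1b1 was lower too (2483 to 2957 beside 3566 to 4053), and the rest of both lists overlapped there. Glul was also higher, and Aldh1b1 and Gls2 lower, in KO than in KO_star. Pck1 was lower and Oat higher in WT_star than in WT. The part of these marker differences in the results of the 33 genes was not tested, nor whether they reflect cell numbers.

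Beyond the 33 genes, 72 other genes of the same pathways were listed, of which 71 passed the filter. In KO against WT 5 of the 71 passed by limma (7.04%, beside 2.89% of all genes), 3 higher and 2 lower. The arsenite methyltransferase gene As3mt was higher, at 621.5 to 876.6 in KO and 271.2 to 324.3 in WT (log2 fold change 1.28, SE 0.14, adjusted p = 3.5e-05), as were the methionine salvage gene Mri1 (0.78, adjusted p = 0.018) and the glycine cleavage gene Gcsh (0.57, adjusted p = 0.015). The thiopurine methyltransferase gene Tpmt was lower, at 375.5 to 429.7 in KO and 1501 to 1737 in WT (-1.99, SE 0.20, adjusted p = 3.3e-05), and so was the glyoxylate transaminase gene Agxt (-0.59, adjusted p = 0.038). Without KO 31 or KO 32, 2 passed, As3mt and Tpmt. Agxt was also lost without WT 25, WT 26 or WT 28, and Gcsh without KO 30. In KO_star against KO 3 passed (4.23%, beside 1.46%): Agxt (0.67, adjusted p = 0.021) and Tpmt (0.89, adjusted p = 0.027) were higher and Mri1 was lower (-0.65, adjusted p = 0.045). All 3 calls were lost without KO 31 or KO 32, and those of Tpmt and Mri1 without KO 30 or KO_star 16. That of Mri1 was also lost without KO_star 12, KO_star 14, KO_star 17 or KO_star 29. In WT_star against WT 3 passed (4.23%, beside 0.904%), As3mt and the glycine cleavage gene Gldc higher and Tpmt lower. As3mt alone passed without WT 26, WT 27, WT 28, WT_star 20 or WT_star 21, and Gldc was also lost without WT_star 33 or WT_star 34. In KO_star against WT As3mt was higher and Tpmt lower (2.82%, beside 0.706%), and in KO_star against WT_star 0 passed by limma (0% of all genes did). No gene passed in any comparison among the lists of folate cycle and transport (13 tested), sulfur amino acid breakdown and glutathione (9), cobalamin supply (9), choline uptake and phospholipid use (10) and histidine breakdown (3). As3mt, Tpmt and Mri1 also passed the interaction test (4.23%, beside 1.29%), with log2 values of -1.52, 1.85 and -1.01.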

How the data were processed

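Liver RNA of 17 mice was sequenced from stranded libraries depleted of ribosomal RNA, per the labels' protocols. The authors deposited 1 table of normalized signal values, each library's gene reads over its own size factor; per the submitters' processing notes, cutadapt, HISAT2 and DESeq2 were used with the build GRCm38. The sources used here give no versions, counting tool, annotation or strand setting. Values were whole multiples of 1 read (100.0% of values at a tolerance of 0.001 reads), worth 0.792 to 1.182 in deposited units; a floor of 3 reads covers counting error only.

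The test was limma 3.58.1 (R 4.3.3, statmod 1.5.0; trended, robust variance, two-sided) on log2(value + 1), with all 17 libraries and their 4 group means in 1 fit. Genes reaching 10 in 3 or more libraries were kept, and Benjamini-Hochberg adjustment ran over all 16157. On recovered reads, edgeR 4.0.16 and DESeq2 1.42.0 were run as alternatives, beside library weights, equal library totals, quantile normalization, pseudocounts of 0.5 and 5, a filter of 50 or none, fits of only the groups compared and leaving out each library. In KO against WT, edgeR called 223 genes higher and 215 lower in KO, where limma called 213 and 254. The main limma fit, edgeR and DESeq2 were checked on simulated data for KO against WT only. The other comparisons and settings were not checked in this way. All 30 pairs of libraries of a group differed by more than sampling noise (chi-square per degree of freedom 8.53 to 101.68). Positions and exon lengths are from GENCODE M21 (26963 identifiers matched) on GRCm38, and promoters from RefSeq, which held 28 of the 33 genes.

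The 33 genes, the lists and the markers were chosen with earlier results of these data known. Described in full are the genes of the 33 past the threshold in at least 1 comparison and, for a role with none, its most abundant gene per kb; other pathway genes are named where called, at most 4 per list.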

Additional observations from a re-analysis of the deposited data

Results flagged for a closer look

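Dixon's test for a single far sample was applied to 99 groups of 4 to 6 libraries of the 33 genes and marked 7, where chance marks about 1 in 20 groups. Mat1a in WT 26 was at 81377, while the other WT libraries lay at 62251 to 64567. KO_star 13 was highest for Mtr (466.8, others 354.2 to 391.3) and lowest for Dmgdh (7877, others 9206 to 9961). Cth in KO_star 14 was at 4301 (others 2370 to 2999) and Aldh1l1 in KO_star 29 at 31671 (others 21482 to 24453). Psat1 in KO_star 16 was at 84.8 (others 15.8 to 33.4), and Mthfd1l in WT_star 34 at 47.4 (others 69.6 to 70.8). KO_star 16 also held the highest pancreatic acinar (2881.5) and dividing cell (2579.5) marker sums of the 17 libraries. Its Phgdh (23.77) and Mthfd1l (146.6) were the highest as well. Whether its marker sums bear on these values was not tested. Without KO_star 29, Aldh1l1 remained called in KO_star against KO (log2 fold change 0.58, adjusted p = 0.046 by limma).

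By the interaction term of limma, KO_star minus WT_star differed from KO minus WT for 3 of the 71 other pathway genes tested. This was 4.23%, beside 1.29% of all genes. KO and WT differ in ancestry as well as genotype, so the term cannot tell genotype from ancestry. Leaving out 1 library gave 2 to 5, with As3mt and Tpmt called each time and Mri1 not called without WT 25, WT 26, KO 30, KO 31, KO 32, WT_star 20 or WT_star 34. The interaction was -1.01 for Mri1 (adjusted p = 0.031), -1.52 for As3mt (adjusted p = 0.00023) and 1.85 for Tpmt (adjusted p = 0.0018). As3mt was at 271.2 to 324.3 in WT, 621.5 to 876.6 in KO, 658.1 to 918.6 in WT_star and 546.0 to 772.7 in KO_star. Tpmt was at 1501 to 1737 in WT, 375.5 to 429.7 in KO, 630.1 to 1124 in WT_star and 612.5 to 1109 in KO_star.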

How the results depend on the processing

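The counts of the 33 genes that passed in WT_star against WT (2) moved to 1 with no filter (Gamt) or with edgeR (Bhmt), to 0 with quantile normalization or only the groups compared, and to 5 with library weights (Bhmt, Bhmt2, Cbs, Fpgs and Gamt) or DESeq2 (Bhmt, Bhmt2, Cbs, Cth and Gamt), where calls over all genes rose from 146 to 757 and 602. Equal library totals gave 2 (Bhmt and Cbs), as did leaving out WT 25, and a filter of 50 gave 3 (Bhmt, Cbs and Gamt). Over all genes, library weights raised the calls from 467 to 1280 in KO against WT and from 209 to 866 in the interaction. DESeq2 raised them from 236 to 823 in KO_star against KO and from 209 to 687 in the interaction. Of the 33 genes, library weights gave 1 in KO against WT (Psat1, lower) and 1 in the interaction (Gamt). DESeq2 gave 2 of the 33 in KO_star against KO (Aldh1l1 and Cth) and 1 in the interaction (Gamt). Leaving out 1 library gave 0 to 2 in WT_star against WT, 0 to 1 in KO_star against KO, 0 to 1 in the interaction (1, Gamt, without KO 30 or KO_star 13), and 0 in the other comparisons. The count was 0 without WT 26, WT 27, WT 28, WT_star 20 or WT_star 21, 1 without WT_star 33 (Bhmt) or WT_star 34 (Gamt), and 0 in KO_star against KO without KO 31 or KO 32; the causes were not tested. Counts of other pathway genes without 1 library were 2 to 5 in KO against WT (2 without KO 31 or KO 32), 1 to 3 in WT_star against WT (1 without WT 26, WT 27, WT 28, WT_star 20 or WT_star 21), 2 to 3 in KO_star against WT, 0 to 1 in KO_star against WT_star (1 without WT_star 33), 0 to 4 in KO_star against KO (0 without KO 31 or KO 32, 1 without KO 30 or KO_star 16) and 2 to 5 in the interaction (5 without WT_star 33). Over all alternatives, Bhmt passed in 9 of 18 (log2 fold change 0.75 to 1.09), Gamt in 7 of 18 (-0.64 to -0.49) and Aldh1l1 in 17 of 19 (0.56 to 0.80). Equal library totals changed the split over all genes from 213 higher and 254 lower to 338 and 188 in KO against WT, from 160 and 76 to 154 and 217 in KO_star against KO, from 86 and 60 to 107 and 41 in WT_star against WT, and from 122 and 87 to 79 and 153 in the interaction. The sign changed in 66 of 960 alternatives of single genes, for 0 called results, with a smallest adjusted p of 0.64. Equal library totals gave 0.022 for Bhmt in KO against WT, 0.020 for Ahcy in WT_star against WT, -0.00013 for Ahcy in KO_star against WT_star and -0.050 for Sardh in the interaction. Library weights gave -0.108 for Psph in KO against WT, 0.125 for Ahcy in WT_star against WT, -0.022 for Psph in KO_star against WT, 0.008 for Mat1a in KO_star against WT_star and -0.013 for Sardh in the interaction. Quantile normalization gave -0.017 for Mat1a in KO_star against WT. With edgeR and DESeq2, Sardh in KO against WT was at -0.004 and -0.007, Ahcy in KO_star against WT at -0.036 and -0.041, Mat1a in KO_star against WT_star at 0.007 and 0.006, and with edgeR Psph in KO against WT at -0.0007. The ranges without 1 library for genes whose sign changed were as follows. KO against WT gave -0.214 to 0.123 for Bhmt, -0.017 to 0.119 for Cbs, -0.067 to 0.079 for Sardh and -0.081 to 0.124 for Psph. WT_star against WT gave -0.156 to 0.163 for Ahcy. KO_star against WT gave -0.011 to 0.142 for Mat1a, -0.136 to 0.184 for Ahcy and -0.008 to 0.198 for Psph. KO_star against WT_star gave -0.07 to 0.046 for Mat1a, -0.058 to 0.107 for Ahcy, -0.022 to 0.127 for Sardh and -0.162 to 0.034 for Psph. KO_star against KO gave -0.04 to 0.157 for Psph. The interaction of genotype and ancestry gave -0.037 to 0.123 for Sardh and -0.168 to 0.054 for Psph. No paired analysis was possible, since the labels give no litter or other pairing and no replicate number occurs in more than 1 group.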
